A study of Homo sapiens with 6 samples.

Results

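Cytosolic ribosomal protein genes encode the protein components of the ribosome in the cytoplasm, and they were taken as the rows of the normalized count table whose symbol is RPL or RPS followed by a ribosomal protein number, or RPLP0, RPLP1, RPLP2 or RPSA. Of 35268 rows that name a gene, 84 were members, 52 of the large and 32 of the small subunit. Genes such as FAU and RPL36AL, which encode further ribosomal proteins under other names, fall outside that rule and were read as a separate list. Rh30 cells, an established line from a fusion-positive rhabdomyosarcoma (a muscle-lineage tumor driven by PAX3-FOXO1), were treated for 24 hours with 1 µM YK-4-279 dissolved in DMSO or with DMSO alone, and mRNA was sequenced from 3 libraries in each group. YK-4-279, supplied as a racemic mixture, is a small molecule known for blocking the interaction of an ETS fusion protein with RNA helicase A. The groups, called YK and DMSO here, share the line, the medium and the time, so the drug is the named difference between them. All 6 libraries come from 1 cell line, and the sources used here do not say whether the 3 samples of a group were separate cultures, so that p-values measure the spread between these samples only.

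Each ribosome is built from 1 copy of nearly every ribosomal protein, so the transcripts of these genes are made in roughly balanced amounts and are among the most abundant in growing cells. Most of them begin with a C followed by a run of C and T bases. This terminal oligopyrimidine (TOP) tract, with the RNA-binding protein LARP1, lets the growth kinase complex mTORC1 set how strongly they are translated. Promoters of ribosomal protein genes often carry binding motifs of ETS factors such as GABP, the family at which YK-4-279 is aimed. A measured mRNA level does not show translation.

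The libraries held 16724650 to 24677433 reads on named genes, of which the members took 6.64% to 7.18%. Muscle lineage genes were well expressed, with MYOD1 between 34516 and 39146 and PAX3 between 1550 and 1794 normalized counts in every library, whereas the 6 markers of other cells were low. The leukocyte markers PTPRC and CD3E did not pass 1.00, the hepatocyte gene ALB was at 0 to 7.0, the epithelial gene EPCAM at 50.1 to 88.3, and the endothelial genes PECAM1 and CDH5 at 14.1 to 29.0 and 5.04 to 15.4. MYF5, also a muscle lineage gene, was at 0 to 1.71. DMSO replicate 1 stood apart, with a mean correlation of 0.989 with the other libraries across genes (0.992 or 0.993 for each of the others), 6.05% of its reads on mitochondrial genes (4.74% to 5.03% in the others) and the fewest reads. The main results on the comparison of groups are therefore given with and without it.

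The printed sequences mark where the transcripts of selected members are annotated to begin, because the TOP tract is a feature that most of them share. Each run holds 15 bases before and 15 bases from the annotated start (RefSeq, GRCh38.p14), read on the strand of the gene, with the uninterrupted run of C and T bases from the start in capitals. A start was counted as having the TOP pattern if its first base was C and at least 4 C or T bases followed it. Members with low adjusted p-values or large differences in at least 1 of the fits come first, then 3 pairs of a ribosomal protein gene and its paralog.
RPL10 (chrX:154398362-154398391, plus strand): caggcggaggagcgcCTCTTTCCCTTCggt
RPL41 (chr12:56116618-56116647, plus strand): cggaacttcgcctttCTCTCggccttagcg
RPL36A (chrX:101390996-101391025, plus strand): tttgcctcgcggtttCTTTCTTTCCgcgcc
RPLP2 (chr11:809952-809981, plus strand): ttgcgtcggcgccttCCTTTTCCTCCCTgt
RPS3A (chr4:151099613-151099642, plus strand): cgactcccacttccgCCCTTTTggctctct
RPS14 (chr5:150449725-150449754, minus strand): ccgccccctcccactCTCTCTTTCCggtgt
RPS21 (chr20:62387088-62387117, plus strand): ggtgactagctgcttCCTTTCTCTCTCgcg
RPL22 (chr1:6199581-6199610, minus strand): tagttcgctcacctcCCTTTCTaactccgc
RPL22L1 (chr3:170870181-170870210, minus strand): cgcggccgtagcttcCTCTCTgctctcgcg
RPL26 (chr17:8383179-8383208, minus strand): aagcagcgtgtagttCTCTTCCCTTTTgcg
RPL26L1 (chr5:172958714-172958743, plus strand): agtcttccaggggtcggcgaacgaaacgcg
RPS27 (chr1:153990747-153990776, plus strand): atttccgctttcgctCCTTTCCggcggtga
RPS27L (chr15:63157463-63157492, minus strand): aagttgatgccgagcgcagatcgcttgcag
RPL22 and RPL22L1 both start with the pattern, while RPL26L1 and RPS27L, printed all in lower case, do not. RPL10 has further annotated starts without it. Of the 67 members with a promoter window, 47 (70.1%) had the pattern at an annotated start, against 1404 (5.14%) of all 27305 genes with a window and 784 (7.16%) of the 10946 of these that were tested. Among canonical members 46 of 62 had it, and among paralogs 1 of 5. For 17 members no window was matched. The ETS core CCGGAAG, searched on both strands of the 250 bases before and 50 from each start, was found in 24 members (35.8%), in 12.2% of all genes and in 21.9% of the tested genes. The tract and the core can overlap, since the reverse complement of the core begins with pyrimidines. A match is only a match of letters.

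After 24 hours of YK-4-279 the ribosomal protein transcripts differed little from the DMSO control, and no member passed the threshold on the values as deposited with all 6 libraries. The test was limma's, two-sided, applied to log2(normalized count + 1) of all 13930 genes whose mean over the libraries reached 10, with Benjamini-Hochberg adjustment over all of them and a threshold of 0.05, and a log2 fold change is on that scale, YK against DMSO. Of the members 82 were tested, 50 large and 32 small subunit genes. At this threshold limma called 475 genes (3.41%) and 0 of the 82 members, with 11 members at an unadjusted p under 0.05, all lower in YK. Neither edgeR nor DESeq2 on the recovered reads called a member. Most differences were small: 57 members had a log2 fold change within 0.1 of 0 and the 95% interval of 64 members lay within 0.3 of 0.

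The small differences lay mostly on one side. Of the 82 members 62 were lower in YK and 20 higher, that is 75.6% lower against 52.0% of all genes tested, and the median log2 fold change was -0.07 against -0.01 over all genes. In 25 members (30.5%) each YK library lay below each DMSO library, a pattern found in 15.1% of all genes tested. No tested member had each YK library above each DMSO library, a pattern found in 10.9% of all genes. With TMM scaling 60 of 82 (73.2%) were lower (median -0.05), against 47.1% of all genes (median 0.01). The lower side was weaker with quantile normalization, where 47 of 82 (57.3%) were lower (median -0.01), against 50.4% of all genes (median -0.0015). In bulk RNA, fewer cells that make a transcript and less of it per cell cannot be told apart, and scaling by library removes any change in total RNA.

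**Figure D1:**
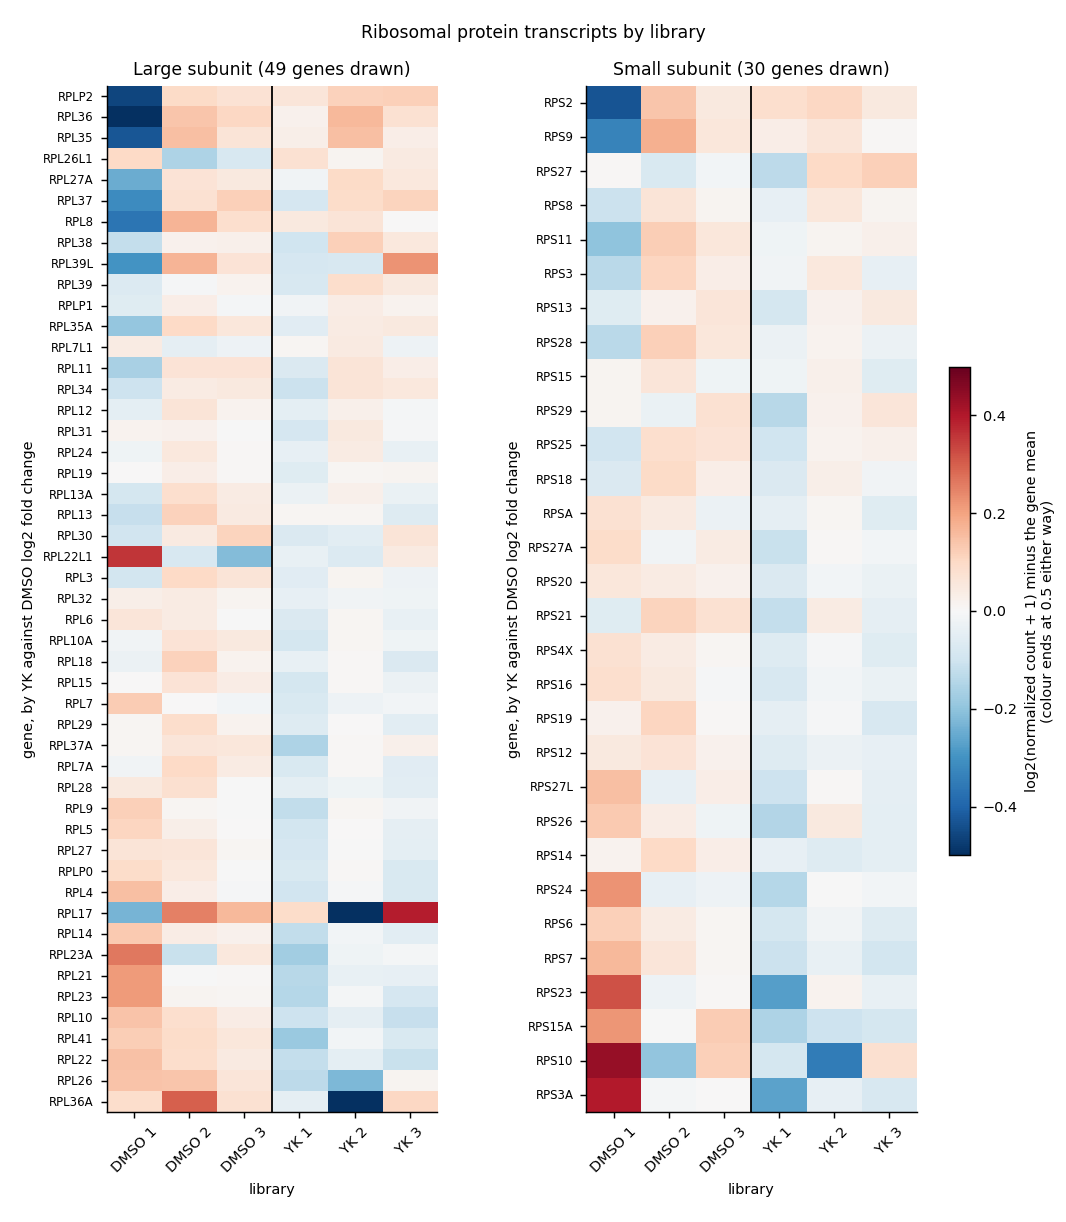
Level of 79 of the 82 tested members in each library as log2(normalized count + 1) minus the gene's mean over the 6 libraries, large subunit on the left and small subunit on the right, ordered from the highest to the lowest log2 fold change. DMSO replicate 1 is the most extreme library for many genes near both ends of the order (lowest for RPLP2, highest for RPS3A), and YK replicate 1 is the lowest library for 42 of all 82 tested members (51.2%, against 19.1% of all genes).

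The subunits had similar values. In the large subunit 35 of 50 genes were lower (26% with no overlap), and the median log2 fold change was -0.06. In the small subunit 27 of 32 were lower (37.5% with no overlap), with a median of -0.08. The difference between the medians was 0.03, and it was between 0.01 and 0.04 when single libraries were left out, close to the spread between libraries of the same group (0.03). The ratio of reads on large to reads on small subunit genes was 1.85, 1.85 and 1.86 across DMSO replicates 1 to 3 and 1.84, 1.85 and 1.85 across YK replicates 1 to 3, with group means of 1.85 ± 0.00619 and 1.85 ± 0.00491 (SD, n = 3 each). These ratios overlapped between the groups. All members together took 6.64%, 7.18% and 7.02% of the reads across DMSO replicates 1 to 3 and 6.86%, 7.06% and 7.01% in YK, or 6.95% ± 0.274 and 6.97% ± 0.106 (SD, n = 3 each). The YK shares lay within the range of the DMSO shares, and without DMSO replicate 1 the DMSO mean was 7.10%. The share weighs members by their reads, whereas the medians weigh them equally.

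**Figure D2:**
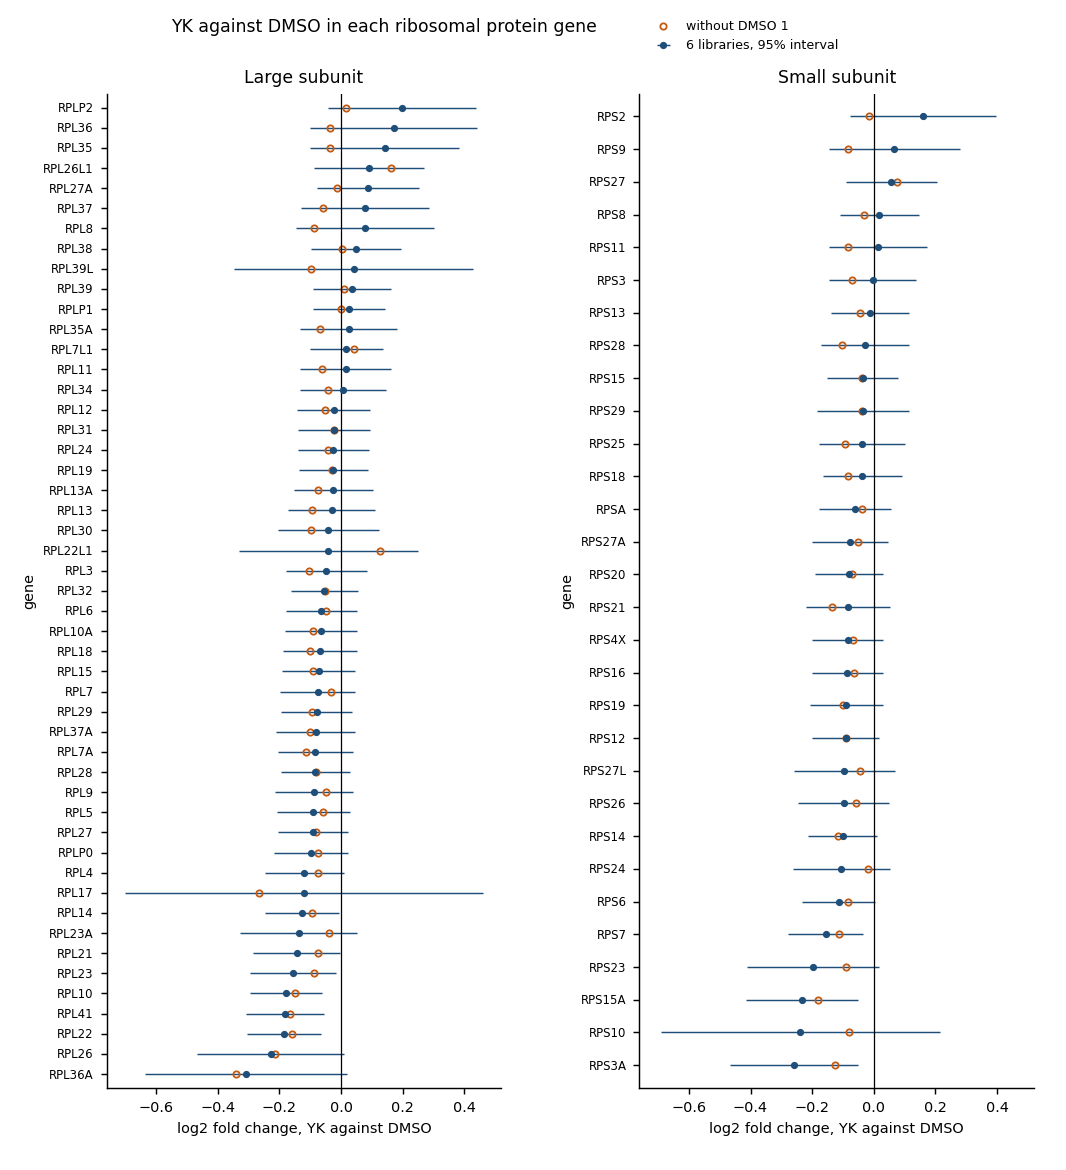
Log2 fold change of YK against DMSO for 79 of the 82 tested members with its 95% interval from limma (filled points, 6 libraries) and the value without DMSO replicate 1 (open points), in the large and the small subunit. Most filled points lie left of 0. The intervals of 9 of the genes drawn exclude 0 before adjustment, where 18.7% of all genes tested had an unadjusted p under 0.05 in limma. The 3 points farthest to the right in the large and the 2 in the small subunit move toward or past 0 without DMSO replicate 1.

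RPL10, which joins the large subunit late and sits near the peptidyl transferase center (chrX:154389955-154409168, plus strand, on hg38 like all gene positions here), had 21914, 21032 and 20384 normalized counts across DMSO replicates 1 to 3 and 18466, 19211 and 18299 across YK replicates 1 to 3. The groups did not overlap, and the log2 fold change was -0.18 (95% interval -0.29 to -0.06, limma adjusted p = 0.0902).

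RPL22, a protein on the surface of the large subunit (chr1:6185020-6209389, minus strand), had 4533, 4348 and 4220 normalized counts across DMSO replicates 1 to 3 and 3774, 3953 and 3794 across YK replicates 1 to 3. Again the groups did not overlap, with a log2 fold change of -0.19 (95% interval -0.31 to -0.06, limma adjusted p = 0.0902).

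RPL41, the smallest ribosomal protein (chr12:56116590-56117967, plus strand), had 11026, 10789 and 10505 normalized counts across DMSO replicates 1 to 3 and 8894, 10029 and 9594 across YK replicates 1 to 3. YK replicate 1 was the lowest of these, and the groups did not overlap. Its log2 fold change was -0.18 (95% interval -0.31 to -0.06, limma adjusted p = 0.107). Without DMSO replicate 1, RPL10, RPL22 and RPL41 had log2 fold changes of -0.15, -0.16 and -0.17, and all 3 passed the threshold in limma (adjusted p = 0.00723, 0.00582 and 0.00427).

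The largest differences, among members whose mean reached 100, belonged to genes with fewer reads or with wide spread. None passed the threshold with 6 libraries before a trend on base composition, described below, was removed. RPL36A, near the site where spent tRNA leaves the large subunit, had 189, 219 and 188 normalized counts across DMSO replicates 1 to 3 and 172, 124 and 191 across YK replicates 1 to 3. YK replicate 2 was far below the other libraries and YK replicate 3 lay within the DMSO range. Its log2 fold change of -0.31 had a 95% interval of -0.64 to 0.02 (limma adjusted p = 0.294), and it was -0.34 without DMSO replicate 1 and -0.13 without YK replicate 2.

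RPS3A, on the platform of the small subunit, had 9129, 6884 and 6948 normalized counts across DMSO replicates 1 to 3 and 5756, 6734 and 6567 across YK replicates 1 to 3. DMSO replicate 1 was the highest by a wide margin, and the log2 fold change went from -0.26 to -0.13 without it. RPS15A, in the body of the small subunit, had 594, 509 and 556 normalized counts with DMSO and 457, 474 and 478 with YK-4-279, a log2 fold change of -0.23 with no overlap (-0.18 without DMSO replicate 1). With the trend on composition removed RPS3A and RPS15A were called lower (log2 fold change -0.25 in each, limma adjusted p = 0.0217 and 0.0216). Both were also called with that and DMSO replicate 1 left out (limma adjusted p = 0.00241 and 0.0355). RPL26, at the exit of the tunnel through which the new protein leaves, had 211, 209.8 and 199 normalized counts with DMSO and 174, 163 and 192 with YK-4-279, a log2 fold change of -0.23 with no overlap (-0.21 without DMSO replicate 1).

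On the other side stood RPLP2, a stalk protein that helps to recruit elongation factors. It had 7838, 11513 and 11328 normalized counts across DMSO replicates 1 to 3 and 11256, 11690 and 11715 across YK replicates 1 to 3. Only DMSO replicate 1 was low, and the other 5 libraries lay close together. Its log2 fold change of 0.20 (95% interval -0.04 to 0.44) was 0.02 without DMSO replicate 1.

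Most of the other members with large positive values also moved to 0 or below without DMSO replicate 1. RPL36 and RPL35, of the large subunit, went from 0.17 and 0.14 to -0.04 and -0.04 without DMSO replicate 1. RPS2 and RPS9, which lie where mRNA enters the small subunit, went from 0.16 and 0.07 to -0.01 and -0.09. RPL26L1, described with the paralogs, did not move that way, going from 0.09 to 0.16. RPS27 went from 0.06 to 0.07, in a gene with 7239, 6834 and 7137 normalized counts with DMSO and 6582, 7722 and 7829 with YK-4-279 and overlapping groups. Its value was 0.01 without YK replicate 3 and 0.14 without YK replicate 1. In all, 13 members were higher with 6 libraries and lower without DMSO replicate 1, and 1 went the other way.

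DMSO replicate 1 differed from the other DMSO libraries along the base composition of the genes. Relative to the mean of DMSO replicates 2 and 3, its log2 difference ranged between -0.62 and 0.51 over the tested members, below both of them in 39 members and above both in 35. In the 27 members with the lowest GC content of the coding sequence (40.4% to 47.3%) its median difference from the other DMSO libraries was 0.07, and in the 27 with the highest (54.0% to 63.0%) it was -0.10. Across the 82 members that difference had a Pearson correlation of -0.46 with GC content, and across 12599 genes it was -0.52, described without a test because all points share the same libraries. The log2 fold change of YK against DMSO had a correlation of 0.31 with GC content across members and -0.06 without DMSO replicate 1. The part of base composition in the result was not tested.

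**Figure D3:**
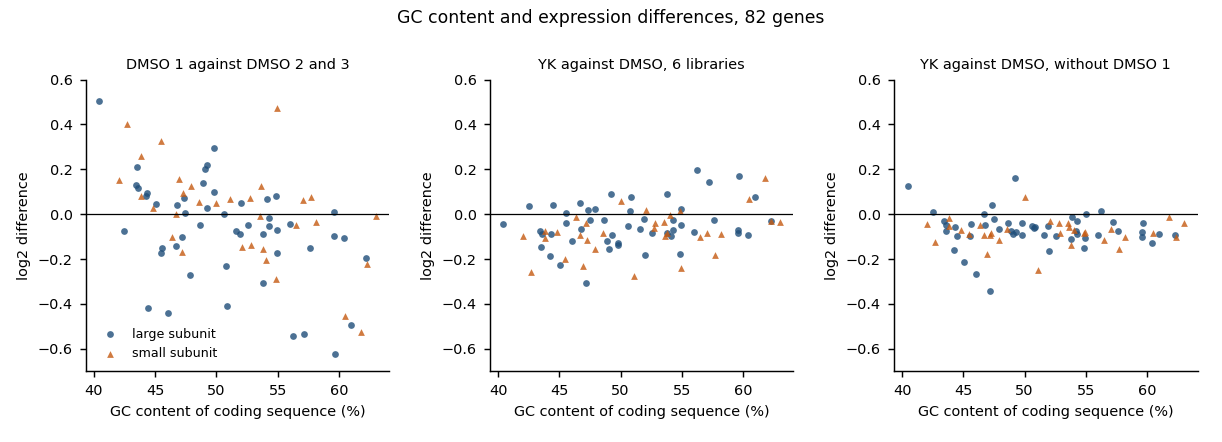
GC content of the coding sequence (percent) against, from left to right, DMSO replicate 1 minus the mean of DMSO replicates 2 and 3, the log2 fold change of YK against DMSO with 6 libraries and the same without DMSO replicate 1, for the 82 tested members (circles large, triangles small subunit). The slope in the first panel (correlation -0.46) returns with the opposite sign in the middle panel (0.31) and is near flat in the last (-0.06).

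Leaving out that library or removing the trend on composition made the lower side more uniform. Without DMSO replicate 1, 74 of 82 members (90.2%) were lower, against 53.3% of all genes (median -0.01). These members were 43 of 50 in the large and 31 of 32 in the small subunit, with medians of -0.07 and -0.08. Limma then called 7 members (8.54%), all lower, against 8.46% of all genes called lower, a share close to that of the background. RPL41, RPL22, RPL10, RPS21 and RPS14 were among them. When a smooth trend of each library along GC content and length of the canonical transcript was taken out, 25 members (30.5%) were called lower against 10.7% of all genes. The GC content here is that of the whole transcript, not of the coding sequence as above. In some members that transcript is far longer than the coding sequence (7573 against 291 bases in RPL37, 7136 against 645 in RPL14). How far the calls rest on these lengths was not tested. With the trend removed and DMSO replicate 1 left out, a choice made after seeing the data, 40 members (48.8%) were called lower against 13.2% of all genes, 21 of 50 large and 19 of 32 small subunit genes. No member was called higher in any of these fits. The medians over all members in these 2 trend-removed fits were -0.11 and -0.10, with 84.1% and 95.1% of members lower. All genes also moved lower in them, with medians of -0.03 and -0.03 and 57.2% and 57.7% lower. With 6 libraries before the trend was removed, the median of all genes was -0.01 and 52.0% were lower.

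RPS14, a platform protein that lies in the deleted region of a bone marrow disorder, had 16526, 17486 and 16705 normalized counts across DMSO replicates 1 to 3 and 15858, 15618 and 15796 across YK replicates 1 to 3. All YK libraries lay below all DMSO libraries, within a narrow range. Its log2 fold change was -0.10 (limma adjusted p = 0.317) and -0.12 without DMSO replicate 1 (limma adjusted p = 0.0412). RPS21, of the small subunit, had 10352, 11677 and 11405 normalized counts with DMSO and 9942, 11114 and 10470 with YK-4-279. There the YK libraries overlapped DMSO replicate 1 but all lay below DMSO replicates 2 and 3, and its log2 fold change went from -0.08 to -0.14 (limma adjusted p = 0.02) without DMSO replicate 1.

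The values also differed between the YK libraries. YK replicate 1 was the lowest of the 6 libraries for 42 members (51.2%, against 19.1% of all genes) and below each DMSO library for 54 (65.9%, against 31.2%). Its median deviation from the gene means was -0.07 in the large and -0.09 in the small subunit. The medians of YK replicates 2 and 3 were 0.01 and -0.02 in the large and 0.01 and -0.04 in the small subunit, while those of the DMSO libraries ran from 0.00 to 0.07 and from 0.03 to 0.06. Without YK replicate 1 the medians of the log2 fold changes were -0.04 in the large and -0.06 in the small subunit, and 57 of 82 members were lower. YK replicates 2 and 3 were both below each DMSO library in 25 members (30.5%), against 17.9% of all genes.

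Members were also read in 4 groups by position in the ribosome. In the head of the small subunit all 14 members were lower (median -0.08), with RPS3 nearest to 0 at -0.0038 (-0.07 without DMSO replicate 1), and in 6 of them (42.9%) the groups did not overlap, against 30.5% of all tested members and 15.1% of all genes. With TMM scaling 13 of the 14 were lower and with quantile normalization 8. Without DMSO replicate 2 and without YK replicate 1 it was 11 of 14, with medians of -0.07 and -0.05. Of 8 proteins at the exit tunnel 6 were lower (median -0.07), and 4 with quantile normalization. That median was -0.04 without DMSO replicate 1, -0.02 without DMSO replicate 2, -0.04 without YK replicate 1, -0.05 without YK replicate 2 and -0.03 in edgeR. The pair that binds the 5S rRNA, RPL5 and RPL11, which can also bind MDM2 when ribosome assembly is disturbed, had log2 fold changes of -0.09 and 0.02, or -0.06 and -0.06 without DMSO replicate 1. In the stalk, RPLP0 and RPL12 were at -0.10 and -0.02, and RPLP1 and RPLP2 at 0.02 and 0.20. Without DMSO replicate 1 the last 3 were at -0.05, 0.00082 and 0.02. None of the genes of these 4 groups passed the threshold with 6 libraries before the trend on composition was removed. Once it was removed, 6 of the 14 head genes (42.9%) were called lower. That share was 34.4% in the small subunit, 30.5% in all tested members and 10.7% in all genes. The head median was -0.14, against -0.12 in the small subunit. Of the stalk RPLP0 was then called, and of the exit tunnel and the 5S pair none.

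RPL19 and RPLP0 are often used as references for qPCR, and neither passed the threshold before the trend on composition was removed. RPL19, a large subunit protein, had 18859, 19238 and 18881 normalized counts across DMSO replicates 1 to 3 and 18032, 18938 and 19024 across YK replicates 1 to 3. The groups overlapped, and the log2 fold change was -0.03 (95% interval -0.14 to 0.09), or -0.03 without DMSO replicate 1 and 0.05 with quantile normalization. With the trend on composition removed it was -0.11 (limma adjusted p = 0.108). RPLP0 had 42749, 41632 and 40077 normalized counts across DMSO replicates 1 to 3 and 38089, 40266 and 38025 across YK replicates 1 to 3. Its YK values were the lower ones apart from YK replicate 2, which lay inside the DMSO range, with a log2 fold change of -0.10 (95% interval -0.22 to 0.02), or -0.07 without DMSO replicate 1. RPLP0 was among the members called lower with the trend removed (log2 fold change -0.17, limma adjusted p = 0.0367), also without DMSO replicate 1 (-0.11, limma adjusted p = 0.0158).

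Transcript levels differed far more between members than between treatments. Levels are normalized counts per kilobase of coding sequence, which corrects for length but not for untranslated regions or for reads shared with copies. The median DMSO level of the 82 tested members was 35088 and the middle 50% lay between 20046 and 46287. RPL41 was highest (143647 in DMSO), in a coding sequence of only 75 bases, where the correction for length is least certain, and RPLP1 (128841), RPL13 (100518) and RPL39 (89824) followed. In DMSO the RPL41 libraries lay above those of RPLP1, and in YK the libraries of both overlapped. By group means of normalized counts, RPL13 was the most abundant large subunit transcript (63628 ± 5070 in DMSO and 62198 ± 1802 in YK, SD, n = 3 each) and RPS2 the most abundant small subunit transcript (46210 ± 9213 and 50909 ± 978). RPS18, of the head, had the highest mean small subunit level per kilobase (66197 in DMSO and 64423 in YK). These ranks held in each library except DMSO replicate 1, where RPL4 exceeded RPL13, RPS4X exceeded RPS2, and RPS19 and RPS24 exceeded RPS18 per kilobase.

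**Figure D4:**
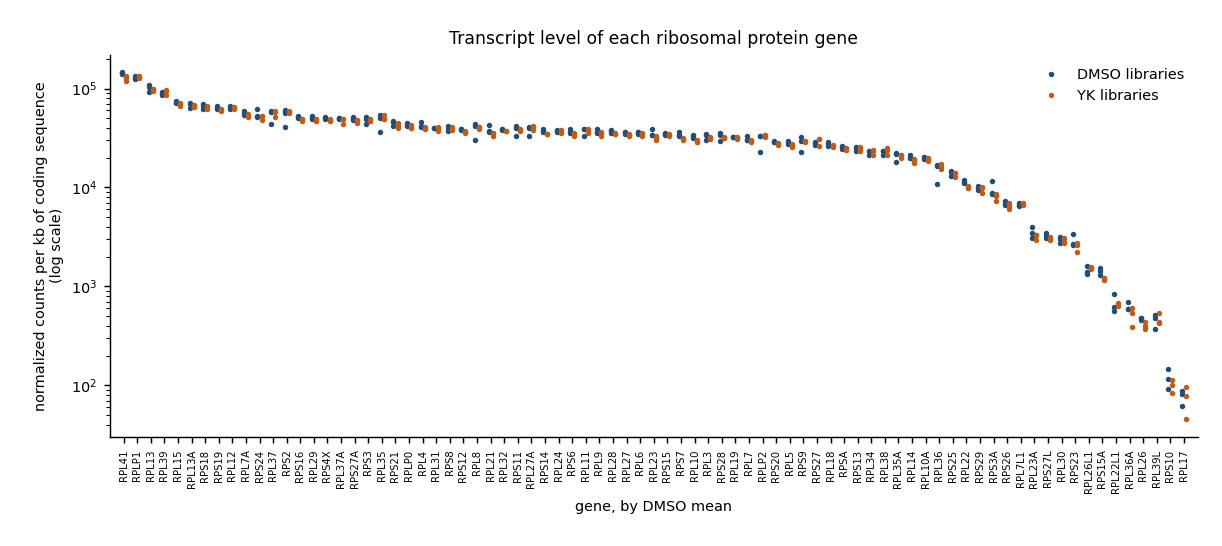
Normalized counts per kilobase of coding sequence on a log scale for 79 of the 82 tested members, ordered by their DMSO mean, with 1 point for each DMSO library (blue) and each YK library (orange). The blue and orange points of a gene nearly coincide, while the members span 1872-fold, and the steep drop at the right holds paralogs and canonical members such as RPL26, RPS10 and RPL17.

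The lowest canonical members shared features of their annotation. RPL17, at the exit tunnel, had 34.04, 47.96 and 45.1 normalized counts across DMSO replicates 1 to 3 and 42.8, 24.99 and 53.03 across YK replicates 1 to 3. RPS10, in the head, had 71.9, 45.97 and 57.6 normalized counts across DMSO replicates 1 to 3 and 49.7, 41.3 and 56.03 across YK replicates 1 to 3. The groups overlapped in both, and each ribosome carries 1 copy of these proteins as it does of RPL13. Their 95% intervals of -0.70 to 0.46 and -0.69 to 0.21 were the widest of all members. Of the exon bases of the canonical transcript, 96.9% in RPL17, 84.0% in RPS10, 65.3% in RPL26 and 43.8% in RPL36A lay under exons of another annotated gene on the same strand (GENCODE 44), in RPL17, RPS10 and RPL36A the readthrough genes RPL17-C18orf32, RPS10-NUDT3 and RPL36A-HNRNPH2. These 3 readthrough genes were at 0 reads in every library, which allows up to 3 reads in each. The DMSO levels of RPL17, RPS10 and RPL26 were 76.7, 118 and 474 per kilobase, against the median of 35088 over all tested members. Read counting that drops a read lying on more than 1 gene lowers such genes, and this was not tested here.

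Processed pseudogenes, copies of the mRNA inserted elsewhere in the genome, are numerous for these genes. The table held 1354 pseudogene rows of the members, of which 734 were at 0 in every library, and all of them together held 62350 reads over the 6 libraries. Their share of all reads was 0.0476% ± 0.00623 in DMSO and 0.0523% ± 0.000210 in YK (SD, n = 3 each), and without DMSO replicate 1 the DMSO mean was 0.0512%. For the median member the pseudogene rows held 0.141% of the reads of the gene itself. They held over 10% in 6 members, with 288% for RPL17, 85.5% for RPL36A and 50.6% for RPS10. The values of these 3 genes are uncertain for that reason as well.

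The 7 paralog members, relatives of a canonical ribosomal protein gene that can take its place or serve in assembly, showed no called difference. RPL7L1, known for a role in early assembly of the large subunit, had 5291, 4993 and 5061 normalized counts with DMSO and 5174, 5306 and 5054 with YK-4-279, a log2 fold change of 0.02 (95% interval -0.10 to 0.14). Its level per kilobase was 21.6% ± 0.559 of that of RPL7 in DMSO and 23.0% ± 0.804 in YK (SD, n = 3 each). RPS27L, a target of p53, had 880.1, 770.4 and 812 normalized counts with DMSO and 738, 795 and 769 with YK-4-279, a log2 fold change of -0.10 (95% interval -0.26 to 0.07) that was -0.04 without DMSO replicate 1, and stood at 11.6% ± 0.482 and 10.4% ± 0.702 of the level of RPS27.

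RPL22L1, regulated by its partner RPL22 in several systems, had 310.2, 229 and 208 normalized counts with DMSO and 236, 230.4 and 249 with YK-4-279. DMSO replicate 1 was the highest, and the log2 fold change went from -0.04 to 0.13 without it. Its level was 5.96% ± 1.07 of that of RPL22 in DMSO and 6.52% ± 0.389 in YK. RPL26L1 had 696, 584 and 614 normalized counts with DMSO and 686, 655 and 670.3 with YK-4-279, a log2 fold change of 0.09 (95% interval -0.09 to 0.27) that was 0.16 without DMSO replicate 1. Its level was 306% ± 26.4 of that of RPL26 in DMSO and 382% ± 28.6 in YK, where most exon bases of RPL26 are shared with another annotated gene, as described above. RPL39L had 56.7, 78.9 and 73.5 normalized counts with DMSO and 65.98, 66.3 and 82.04 with YK-4-279, 0.506% ± 0.0717 and 0.507% ± 0.0607 of the level of RPL39.

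RPL3L and RPL10L were not tested. RPL3L, a relative of RPL3 made in heart and skeletal muscle, had 7.57, 6.99 and 5.84 normalized counts with DMSO and 9.43, 8.69 and 12.01 with YK-4-279, from 6 to 12 reads a library, below the minimum mean. Each YK library lay above each DMSO library, and in the fit without a minimum its log2 fold change was 0.50 (adjusted p = 0.666 in limma, standard error 0.42). Its partner RPL3 had a log2 fold change of -0.05, or -0.11 without DMSO replicate 1 and -0.0087 without DMSO replicate 2. RPL3 was called lower with the trend on composition removed (log2 fold change -0.13, limma adjusted p = 0.042), also without DMSO replicate 1 (-0.14, limma adjusted p = 0.00141). RPL10's testis relative RPL10L was at 0 reads in every library, which allows up to 3 reads each.

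The medians were alike with and without the TOP pattern or the ETS core. The 47 tested members with the TOP pattern had a median log2 fold change of -0.07 and the 19 without it -0.07. The 24 with the ETS core had a median of -0.06 and the 42 without it -0.07. Without DMSO replicate 1 these 4 medians were -0.08, -0.06, -0.08 and -0.07 in the same order. Members were sorted by the exact annotated start. In some without the pattern, such as RPL9, RPL10A and RPL19, a run of C and T bases lies within a few bases of that start. The groups therefore do not separate genes with a tract from genes without one, and a role of the tract was not tested.

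Genes that work with the ribosomal proteins were read as lists. The first list held genes whose mRNAs also carry a TOP tract, mostly factors of translation, with TPT1 and NAP1L1 among the others. Of 13 tested (1 of the 14 listed was not analysed here) 12 were lower (median log2 fold change -0.12). In 7 of them (53.8%) each YK library lay below each DMSO library, against 15.1% of all genes, and none passed the threshold, while with the trend on composition removed 4 (30.8%) were called lower, against 10.7% of all genes. EEF1A1, the elongation factor that brings aminoacyl-tRNA and the most abundant of them, had 229622, 208595 and 203815 normalized counts across DMSO replicates 1 to 3 and 189444, 201178 and 190422 across YK replicates 1 to 3. YK replicate 2 lay just below the lowest DMSO library and the others further down, a log2 fold change of -0.14 (adjusted p = 0.266 in limma, standard error 0.07). That log2 fold change was -0.09 without DMSO replicate 1. Without DMSO replicate 1, 12 of the 13 were lower (median -0.09) and 3 (23.1%) were called lower against 8.46% of all genes, and with quantile normalization 9 were lower (median -0.04).

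The lists of ribosome assembly held genes on both sides in similar numbers and no call with 6 libraries before the trend on composition was removed. Of 39 factors of rRNA processing and small subunit assembly 22 were lower and 17 higher (median -0.04), with NOLC1, the most abundant, at 0.01. Of 29 large subunit assembly factors 15 were lower and 14 higher (median -0.0016), with NCL, a nucleolar protein, at -0.03. Both lists had medians of 0.01 without DMSO replicate 1. In that fit 1 of the 39 (2.56%) and 1 of the 29 (3.45%) were called lower, against 8.46% of all genes. There 1 of the 29 was also called higher, as were 644 of all 13930 genes. With the trend removed 2 of the 39 (5.13%) and 1 of the 29 (3.45%) were called lower, against 10.7% of all genes. RNA polymerase I, which makes rRNA, had 7 of 14 genes lower and 7 higher (median -0.02), with its largest subunit POLR1A at 0.05. Of 7 chaperones of ribosomal proteins 5 were higher and 2 lower (median 0.02), with GRWD1 at 0.02. Leaving out DMSO replicate 1 changed the sign of the median in both lists, with 5 of 14 lower (median 0.01) for RNA polymerase I and 4 of 7 lower (median -0.00010) for the chaperones. Of the RNA polymerase I genes 1 was then called higher, as were 644 of all 13930 genes. With the trend removed and 6 libraries 1 was called higher, as were 498 of 13705 genes. FAU and RPL36AL were at 0.02 and 0.08, but without DMSO replicate 1 all 3 genes of their list were lower (median -0.06). Of the 75 tested genes for proteins of the mitochondrial ribosome 40 were lower and 35 higher, with a median of -0.0033 and no call. When DMSO replicate 1 was left out, 49 of these 75 were lower (median -0.03) and 2 (2.67%) were called lower, against 8.46% of all genes. With the trend on composition removed 53 were lower (median -0.05) and 5 (6.67%) were called lower, against 10.7%, and with both choices 56 were lower (median -0.05) and 10 (13.3%) were called lower, against 13.2% of all genes.

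In the list of mTORC1 and its TOP regulators, 7 of 13 genes were lower and 6 higher (median -0.02), and 1 was called, where 3.41% of all genes were. Without DMSO replicate 1, 10 were lower (median -0.06), with 3 (23.1%) called lower, against 8.46% of all genes. In that fit 1 was called higher, as were 644 of all 13930 genes tested. With quantile normalization 4 were lower (median 0.04) and without DMSO replicate 2 also 4 (median 0.01). With the trend removed 10 were lower (median -0.06) and 1 (7.69%) was called lower, against 10.7% of all genes. EIF4EBP2, a repressor of cap-dependent translation that mTORC1 inactivates, fell, with 4600, 4174 and 4004 normalized counts across DMSO replicates 1 to 3 and 3447, 3465 and 3382 across YK replicates 1 to 3. All YK libraries lay close together below all DMSO libraries, a log2 fold change of -0.31 (adjusted p = 0.0172 in limma, standard error 0.06). The call was lost when any 1 YK library was left out (limma adjusted p = 0.111 to 0.128), with quantile normalization (limma adjusted p = 0.0539) and with eBayes without trend (limma adjusted p = 0.138). LARP1, which binds TOP mRNAs, was at 0.03.

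**Figure D5:**
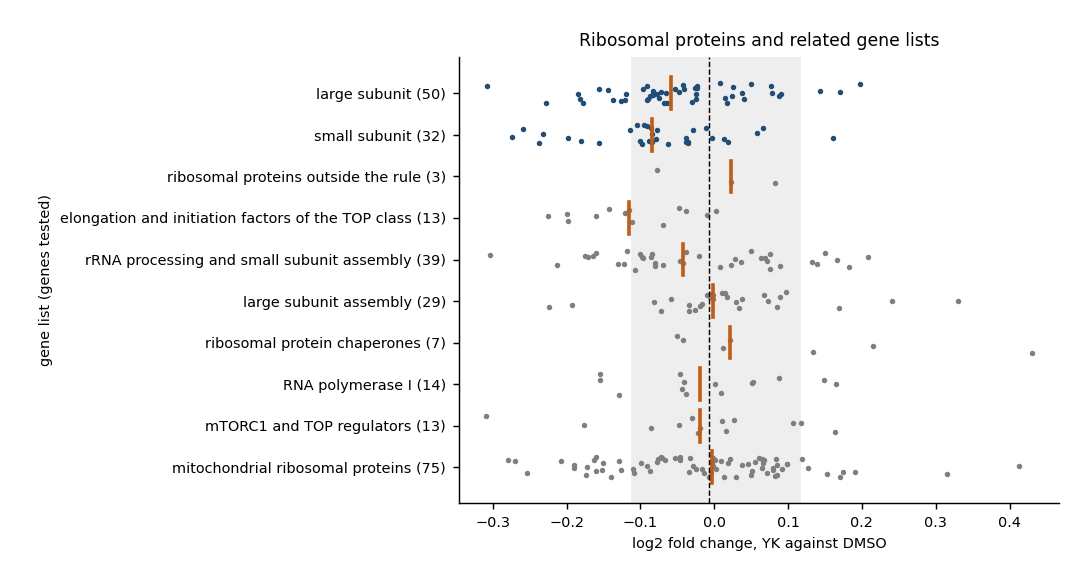
Log2 fold change of YK against DMSO for each tested gene of the large and small subunit (blue) and of related lists (gray), with the median of each list (orange bar), the median of all 13930 genes (dashed line, -0.01) and the range of their middle 50% (shaded, -0.11 to 0.12). The bars of both subunits (-0.06 and -0.08) and of the TOP class list (-0.12) lie left of the dashed line, and most single genes of both subunits stay inside the shaded range.

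The genes most like the members in their pattern over the 6 libraries were ranked by Pearson's correlation with the members' mean deviation, among 4640 other genes with a mean of at least 1000. That mean deviation was 0.00068, 0.06 and 0.03 across DMSO replicates 1 to 3 and -0.07, -0.01 and -0.01 across YK replicates 1 to 3. UTP18, PPP2R5D, DLST, CHRNB1 and FBXO21 had the highest correlations, 0.999, 0.988, 0.986, 0.967 and 0.950 over 6 libraries, a description of genes picked for that value. Their own log2 fold changes ran from -0.14 to -0.05 and none passed the threshold in limma.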

How the data were processed

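Rh30 cells received YK-4-279 at 1 µM or DMSO for 24 hours, with 3 samples each. The study sequenced mRNA as paired reads, removed adapters and poor reads (BBDuk), and used STAR 2.7.9a for alignment to hg38 and for gene counts (tools also per the submitters' processing notes). The deposited values are a normalized count signal, in which the reads of a library share 1 scaling factor, and dividing by the smallest value above 0 gave whole reads for 100% of the values (within 0.01). Of 35269 rows, 1 without a gene name was left out (at most 6 reads a library), and 0 sample columns were left unused. Libraries held 16724650 to 24677433 reads, which limits precision to counting error and the spread of 3 samples.

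limma 3.58.1 in R 4.3.3 (lmFit, eBayes with trend) was run on log2(value + 1) for 13930 genes with a mean of at least 10, with Benjamini-Hochberg adjustment. Alternatives were other pseudocounts, filters and scalings, edgeR 4.0.16, DESeq2 1.42.0, a replicate block and single libraries left out. A further one removed each library's spline trend (5 degrees of freedom) on GC content and length of the canonical transcript (98.4% of genes, GENCODE 44). Code was tested on simulated data. The members, the gene lists and the tests were chosen with earlier results of these data known. Genes were named by a rule: called members, the 3 largest differences each way per subunit with a mean of at least 100, extremes of level, paralogs with partners, RPL19 and RPLP0, leading genes of each list and the 5 most similar genes. RPS14, RPS21 and others beyond it were named after their values were seen. A few genes are not reported here singly or drawn by name, but they are part of all counts and medians. Coding lengths are from GENCODE canonical transcripts on hg38 and start sequences from RefSeq (GRCh38.p14).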

Additional observations from a re-analysis of the deposited data

How the results depend on the processing

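The count of members called was 0 in limma on the 6 libraries before the trend was removed and, on the same libraries, with the other pseudocount, the other filters, both other scalings, eBayes without its trend, edgeR and DESeq2. It was 25 with the trend on GC content and length removed, 40 with that and DMSO replicate 1 left out, and from 0 to 7 when single libraries were left out. The count of genes called was 475 (299 lower), 391 (219 lower) with TMM scaling, 277 (145 lower) with quantile normalization, 33 (3 lower) when eBayes ran without its trend, 1968 (1470 lower) with the trend removed and 2476 (1815 lower) with that and DMSO replicate 1 left out, and from 19 (4 lower, without YK replicate 1) to 1823 (1179 lower, without DMSO replicate 1) when single libraries were left out. The cause of these changes was not tested.

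The median of the large subunit went to -0.0055 with quantile normalization, -0.096 with the trend removed and -0.093 with that and DMSO replicate 1 left out, and from -0.074 to -0.038 when single libraries were left out. That of the small subunit went to -0.022 with quantile normalization, -0.12 with the trend removed and -0.10 with that and DMSO replicate 1 left out, and from -0.10 to -0.058 when single libraries were left out. Over all genes the median was -0.0015 with quantile normalization, -0.028 with the trend removed and -0.027 with that and DMSO replicate 1 left out. The difference of the medians went from 0.0078 to 0.040, and the share of reads, YK minus DMSO, from -0.12 to 0.14 percentage points. Canonical members alone gave medians within the spread between libraries.

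The replicate numbers did not pair the samples (correlations of same-numbered deviations -0.098, -0.027 and -0.027). With a replicate block 180 genes (101 lower) and 0 members were called.

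Reversed signs, none of them called with 6 libraries before the trend was removed, were as follows. With quantile normalization RPL13, RPL39L and RPL19 were at 0.056, -0.053 and 0.049. With the trend removed RPS27, RPS9, RPL22L1, RPL39L, GRWD1, POLR1A and LARP1 were at -0.0039, -0.051, 0.0059, -0.030, -0.058, -0.032 and -0.033. With that and DMSO replicate 1 left out RPL35, RPL36, RPLP2, RPS9, RPS2, RPL22L1, RPL39L, RPL39, NOLC1, GRWD1, POLR1A and LARP1 were at -0.053, -0.045, -0.0035, -0.10, -0.029, 0.12, -0.13, -0.0042, -0.0032, -0.068, -0.042 and -0.029. When single libraries were left out, RPL35 went from -0.036 to 0.25, RPL36 from -0.037 to 0.28, RPS9 from -0.085 to 0.17, RPS2 from -0.015 to 0.27, RPL22L1 from -0.16 to 0.13, RPL39L from -0.099 to 0.14, GRWD1 from -0.059 to 0.075, RPL13 from -0.095 to 0.019, RPS18 from -0.084 to 0.00011 and NOLC1 from -0.017 to 0.024. Depth limits RPL17, RPS10 and RPL39L, whose means lie under 100.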
